A study of Bos taurus with 6 samples.

Results

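Glycolysis and hypoxia-response genes were examined in granulosa cells of dairy cows given folic acid and vitamin B12 or saline. The set holds 35 genes: 25 transporters and enzymes of glycolysis and its control, and 10 genes of the response to low oxygen. Members were the array probes whose symbol in the platform annotation is one of these 35. Under these symbols, 33 genes had 51 probes. GAPDH and PKM2 matched no probe and were not analysed here. ALDOC, a brain-type aldolase, had 1 probe, which exceeded the negative controls in 1 of 12 readings and was not tested. The remaining 32 genes, 22 of glycolysis and 10 of the hypoxia response, were among 10946 named genes tested on the array.

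Folic acid (320 mg) and vitamin B12 (10 mg) were injected into the muscle of treated cows, and physiological saline (0.9%) was given to the controls, from 3 weeks before calving until 57 ± 2 days after it. In both groups, granulosa cells came from preovulatory follicles (12 mm or more) sampled 66 ± 2 h after the second dose of prostaglandin F2 alpha, on day 57 ± 3 or, where none was present, on day 71 ± 3. RNA of both groups was hybridised together on 6 two-colour arrays, 3 with vitamins in Cy5 and 3 with vitamins in Cy3, which the design text describes as 3 biological replicates with 2 dye-swapped arrays each. Whether each replicate was 1 cow or pooled cows, and the cows' breed and age, are not in the labels. The p-values rest on the spread between these 3 replicate ratios, moderated over all probes. How much of that spread is technical is not known.

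Glycolysis breaks glucose down to pyruvate in the cytosol, and lactate dehydrogenase turns pyruvate into lactate that leaves through monocarboxylate carriers. The follicle wall inside the basement membrane has no blood vessels before ovulation, and granulosa cells are known for a high glycolytic rate whose products feed the oocyte. When oxygen is low, hypoxia-inducible factor escapes degradation by prolyl hydroxylases and raises the transcription of most glycolytic enzymes and of genes such as BNIP3, EGLN3 and CA9.

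Between 53.0% and 68.7% of 43794 gene probes exceeded the negative controls in a channel. Of 12 granulosa markers 11 were measured, among them FSHR, CYP19A1 and AMH, and 8 of these were detected in all 12 readings, while the transcription factor FOXL2 was on the array but not tested. The replicates differed in markers of other cells. For 11 of 16 leukocyte markers measured, the median log2 ratio of vitamins over saline was -3.76 in replicate 1 (range -5.39 to -0.14), 1.86 in replicate 2 (-0.25 to 2.74) and -0.11 in replicate 3 (-0.83 to 1.25). For 7 of 9 markers of simple epithelium it was -0.19 (range -3.25 to 0.34), 3.82 (0.04 to 6.87) and 0.16 (-0.21 to 0.98) in the same order, and 3 of the 7 were at -1 or lower in replicate 1. Granulosa markers had medians of 0.94, 0.06 and 0.86, and 14 cell cycle genes had -1.59, -0.99 and -1.32. Theca and stroma markers, 9 of 9 measured, had 0.17, 0.72 and -0.42. Endothelial markers were mostly below detection, with 2 of 7 measured. Of 8 red cell and platelet markers 2 were measured, the red cell genes HBA and HBB, while GP1BB was not on the array. HBA exceeded the negative controls in both channels of every array. Its log2 ratios were -1.34, -0.43 and -0.53 in replicates 1, 2 and 3. Those of HBB were -0.66, -0.48 and -0.10. In such bulk RNA, fewer cells of a type and less RNA per cell cannot be told apart.

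No member passed the test between vitamins and saline. The median log2 ratio over the 32 genes was -0.10, against 0.01 over all genes, and 18 members (56.2%) had a mean below 0, against 48.9% of all genes. By limma, adjusted over all 26688 probes, 0 members and 0 probes (0%) passed at 0.05, and the lowest adjusted p of a member was 0.9998. Without adjustment, 1244 probes (4.66%) had p under 0.05. PGAM1 and BNIP3 were the 2 members that did so, both with lower signal in vitamin-treated cells (6.25% of members, against 3.27% of all genes), while 0 members were higher (2.89% of all genes). In all 3 replicates, 5 members (15.6%) were below 0 and 1 (3.12%) above 0, where 12.5% of all genes were below and 12.7% above. The share below 0 lay near that of all genes, and the share above 0 was smaller; neither difference was tested.

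**Figure D1:**
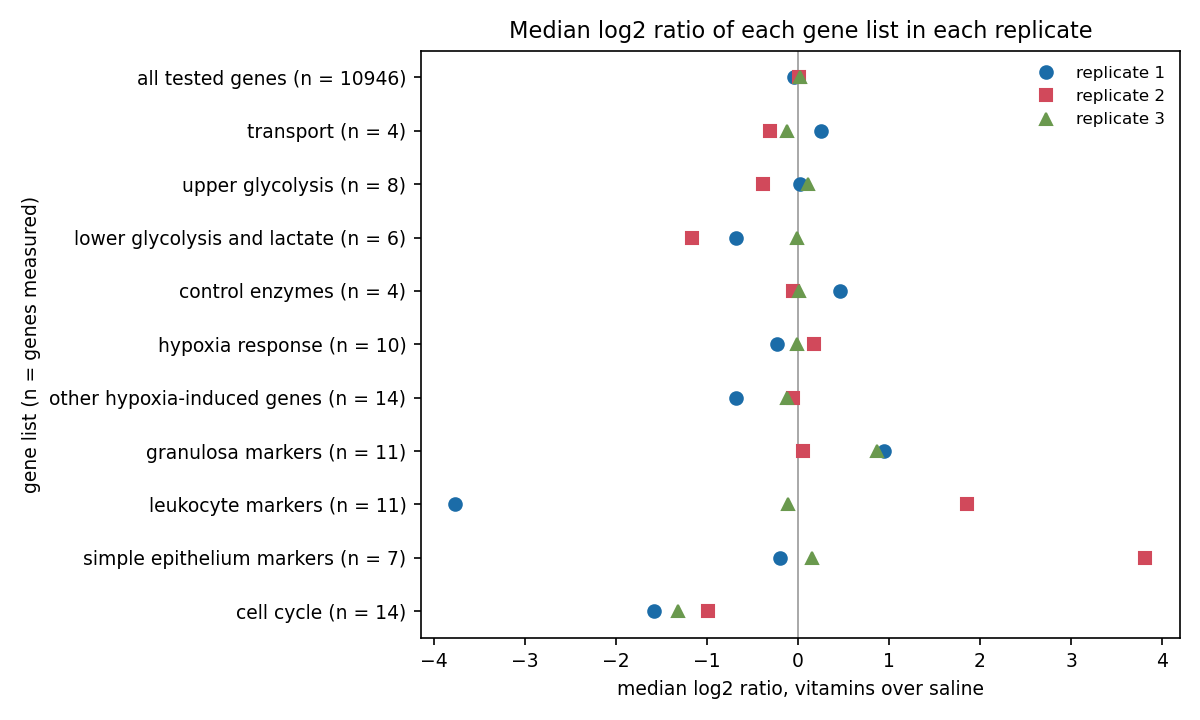
Median log2 ratio of vitamins over saline (x axis) for each list of genes (y axis, with the number measured); each symbol is 1 of the 3 replicates. Lower glycolysis and lactate genes sit at -0.68 and -1.16 in replicates 1 and 2 and at -0.01 in replicate 3, leukocyte markers at -3.76, 1.86 and -0.11.

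The replicates did not share a direction for glycolysis. The median over its 22 genes was 0.17 in replicate 1, -0.45 in replicate 2 and 0.01 in replicate 3, where all genes had -0.04, 0.01 and 0.02. In replicate 2, 16 of 22 genes were below 0, against 48.7% of all genes, and 5 had a log2 ratio of -1 or lower, which 2.97% of all genes reached. Those 5 were ALDOA, PGK1, PGAM1, ENO1 and LDHA. On the 2 arrays of that replicate the medians were -0.38 and -0.44. In replicate 1, 10 of 22 genes were below 0 (53.3% of all genes), 2 were at -1 or lower (10.3%) and 2, SLC16A3 and PDK1, at 1 or higher (7.07%). In replicate 3, 11 of 22 were below 0 (47.4% of all genes), none of the 22 at -1 or lower (1.84%) and PFKM alone at 1 or higher (1.88%). No glycolysis gene was at 1 or higher in replicate 2, where 7.14% of all genes were. Replicate 2 was also the one where the epithelial markers had a median of 3.82 and leukocyte markers one of 1.86. The part of those cells in the glycolytic values was not tested. The median of the 22 genes in replicate 2 stayed below 0 under each scaling run, at -0.45 with no background subtraction, -0.46 with plain subtraction, -0.94 with median centring in place of loess and -0.54 in the authors' deposited table. With median centring, 10 of the 22 genes reached -1 there, while the median of all genes moved to -0.08 in that replicate and to 0.12 in replicate 3. The glycolysis median of replicate 1 lay on the other side of 0 at -0.10 with median centring and -0.02 in the authors' deposited table, and that of replicate 3 was 0.28 with median centring.

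Glucose enters through SLC2A1 and SLC2A3, the facilitative transporters of most cells and of cells with high demand. SLC2A1 had log2 ratios of 0.34, -0.10 and 0.69 in replicates 1, 2 and 3, with a mean of 0.31 ± 0.40 (SD, n = 3). Its dimmer probe gave -0.58, -0.33 and -0.02, so the 2 probes of SLC2A1 had means of opposite sign (0.31 and -0.31). SLC2A3, which leukocytes also express strongly, stood at -2.10, -0.16 and 0.03, with a mean of -0.74 ± 1.18 (SD, n = 3).

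Replicate 1 alone held the low value of SLC2A3. On the arrays of replicate 1 its spot read 3499 and 3869 intensity units in the vitamin channel against 20370 and 15898 in the saline channel. On the other 4 arrays the vitamin readings ran from 3513 to 4455 and the saline readings from 2944 to 5679. Without replicate 1 the mean was -0.06. The leukocyte markers had medians of -3.76, 1.86 and -0.11 in replicates 1, 2 and 3, where SLC2A3 had -2.10, -0.16 and 0.03. The part of leukocytes in the SLC2A3 value was not tested.

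SLC16A1 and SLC16A3 carry lactate and pyruvate across the cell membrane, the latter mainly outward from glycolytic cells. SLC16A1 had 0.16, -0.59 and -0.83, a mean of -0.42 ± 0.52 (SD, n = 3), and its 3 probes averaged from -0.44 to -0.25. SLC16A3 had 1.36, -0.46 and -0.28, a mean of 0.21 ± 1.00 (SD, n = 3). With loess and the brightest probe, each carrier was above 0 in replicate 1 and below 0 in replicates 2 and 3. Replicate 1 of SLC16A1 was at -0.09 both with median centring and in the authors' deposited table, and at -0.01 for 1 of its dimmer probes. With median centring, replicate 3 of SLC16A3 was at 0.01. In replicate 1, 96.1% of all genes had a lower ratio than SLC16A3.

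**Figure D2:**
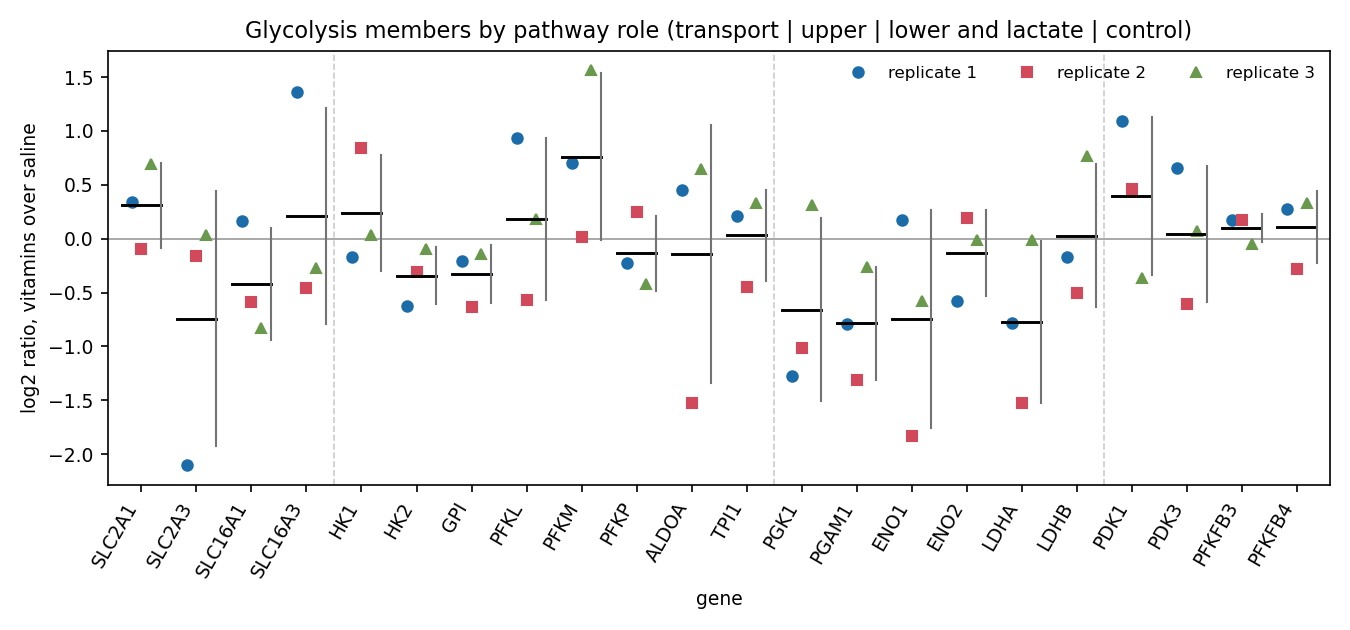
Log2 ratio of vitamins over saline (y axis) of the 22 glycolysis genes (x axis), grouped by role with dashed lines between transport, upper glycolysis, lower glycolysis with lactate, and control enzymes. Symbols are the 3 replicates, black bars the mean and grey bars ± 1 SD; PGK1, PGAM1, ENO1 and LDHA reach -1.01 to -1.83 in replicate 2, and PFKM is above 0 in each replicate with loess but at -0.39 in replicate 2 with median centring.

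Upper glycolysis, from glucose to triose phosphate, had a median of -0.05 over 8 genes, with 4 below and 4 above 0. Its replicate medians were 0.02, -0.38 and 0.11. Hexokinases trap glucose in the cell: HK1, the ubiquitous form, had -0.17, 0.85 and 0.04, and HK2, the inducible form, had -0.62, -0.31 and -0.10. The mean of HK2 was -0.34 ± 0.26 (SD, n = 3), and the lowest and highest of its 3 probes averaged -0.34 and 0.13. With loess and the brightest probes, HK1 and HK2 differed in sign in replicates 2 and 3. With median centring both were above 0 in replicate 3, at 0.29 and 0.18. The dimmest probe of HK2 had 0.01, 0.12 and 0.27, so the contrast depended on scaling and probe. GPI, the isomerase of the next step, was below 0 in each replicate with loess (-0.21, -0.64 and -0.14). Its mean was -0.33 ± 0.27 (SD, n = 3), and its dimmer probe was at 0.01. With median centring replicate 3 of GPI was at 0.13.

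Phosphofructokinase commits sugar to glycolysis, and its 3 subunit genes had different values. PFKM, the muscle-type subunit, was at 0.70, 0.02 and 1.56, with a mean of 0.76 ± 0.77 (SD, n = 3), a 1.69-fold higher level with vitamins. With loess it was the only member above 0 in all 3 replicates, and in replicate 3 its ratio exceeded that of 99.6% of all genes. That state depended on the scaling: replicate 2 of PFKM was -0.39 with median centring and -0.0019 in the authors' deposited table. Without replicate 3 its mean was 0.36. In replicate 2 its arrays read -0.17 and 0.20, so the 2 dye orientations differed in sign there, and its 95% interval from the fit ran from -0.15 to 1.67. PFKL, the liver-type subunit, had 0.94, -0.57 and 0.18, a mean of 0.19 ± 0.75 (SD, n = 3). PFKP, the platelet-type subunit, had -0.23, 0.25 and -0.42, a mean of -0.13 ± 0.35 (SD, n = 3).

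Aldolase splits the sugar into trioses. ALDOA, the aldolase of most tissues, had 0.45, -1.52 and 0.65, with a mean of -0.14 ± 1.20 (SD, n = 3), below 0 in 1 replicate and above it in 2. On the arrays of replicate 2 it was at -1.44 and -1.61, and 0.649% of all genes had a lower ratio there. Without replicate 2 the mean of ALDOA was 0.55. TPI1, which interconverts the trioses, had 0.21, -0.45 and 0.33, a mean of 0.03 ± 0.42 (SD, n = 3).

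Lower glycolysis and lactate formation had the lowest median of the roles, -0.70 over 6 genes, of which 5 were below 0. Its replicate medians were -0.68, -1.16 and -0.01, and on single arrays they ran from -1.13 to 0.10. Under the other scalings the medians of replicates 1 and 2 stayed below 0 (-0.69 to -0.31 and -1.69 to -1.09), while that of replicate 3 was 0.14 with median centring. This group was formed with earlier results of these data known, so its median is a description.

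PGK1, which makes the earliest ATP of the pathway, had -1.28, -1.01 and 0.31, a mean of -0.66 ± 0.85 (SD, n = 3), which was -0.35 without replicate 1. PGAM1, the phosphoglycerate mutase, had -0.79, -1.31 and -0.26, a mean of -0.79 ± 0.52 (SD, n = 3), a 1.72-fold lower level. PGAM1 was below 0 on all 6 arrays (-0.83, -0.75, -1.17, -1.45, -0.10 and -0.42 for arrays 1 to 6), as were 5.21% of all genes. Before scaling, its spot read 12656 to 22594 units in the vitamin channels and 23557 to 44464 in the saline channels. How many of all genes had ranges placed in this way was not counted. The unadjusted p of limma was 0.0316, with a 95% interval of -1.46 to -0.11, and the adjusted p = 0.9998. Median centring moved replicate 3 of PGAM1 to 0.02, and the mean then was -0.91.

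ENO1, the common enolase, had 0.17, -1.83 and -0.58, a mean of -0.75 ± 1.01 (SD, n = 3). In replicate 2 its arrays gave -1.89 and -1.76, and 0.283% of all genes had a lower ratio. Its dimmer probe had the same signs with smaller values (0.07, -0.66 and -0.50). Without replicate 2 the mean of ENO1 was -0.20. ENO2, the neuronal enolase, had -0.58, 0.19 and -0.02, a mean of -0.14 ± 0.40 (SD, n = 3). It was detected in 7 of 12 readings, and with loess the signs of the 2 enolases were opposite in replicates 1 and 2. In replicate 1 that depended on the scaling. There ENO1 and ENO2 were at 0.19 and 0.03 in the authors' deposited table, and at -0.05 and -0.48 with median centring.

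LDHA, the subunit that favours lactate formation, had -0.78, -1.52 and -0.01, a mean of -0.77 ± 0.75 (SD, n = 3). Its other probe gave -0.74, -1.65 and 0.05, so the sign in replicate 3 depended on the probe. The mean of LDHA was -0.40 without replicate 2 and -0.46 in the authors' deposited table. The spot of LDHA was near the top of the scale, with 8 of 12 readings above 50000 units and the highest at 63125, where the files end at 65535. LDHB, the subunit that favours lactate use, had -0.17, -0.51 and 0.77, a mean of 0.03 ± 0.66 (SD, n = 3). LDHB was thus below 0 in replicates 1 and 2, as LDHA was, and above 0 in replicate 3.

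The control enzymes had a median of 0.10, and the means of all 4 were above 0 with loess. PDK3 and PFKFB3 were below 0 under other scalings, at -0.09 and -0.01 with median centring and at -0.03 and -0.04 in the authors' deposited table. PDK1, which restrains pyruvate use in the mitochondrion by phosphorylating pyruvate dehydrogenase, had 1.10, 0.46 and -0.37, a mean of 0.40 ± 0.73 (SD, n = 3). The 2 other tested probes of PDK1 had means of -0.08 and 0.12, and in replicate 2 their sign was opposite to that of the brightest one (-0.57 and -0.48), as it was in replicate 3 (0.30 and 0.65). Without replicate 1 the mean of PDK1 was 0.05. PDK3, a kinase of the same family, had 0.66, -0.60 and 0.08. PFKFB3 and PFKFB4 make the activator of phosphofructokinase: PFKFB3 had 0.17, 0.17 and -0.05, and PFKFB4 had 0.27, -0.28 and 0.33. PFKFB3 had the smallest range between replicates of the 32 members, 0.22, and a 95% interval of -0.31 to 0.51.

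The hypoxia-response members had a median of -0.14 over 10 genes, of which 7 were below 0. Their replicate medians were -0.23, 0.18 and -0.01, so that in replicate 2, where glycolysis was at -0.45, they lay on the other side of 0. Glycolysis minus hypoxia response was 0.40, -0.63 and 0.02 in the 3 replicates. The difference of the medians, 0.09 over the replicate means, was smaller than the SD of 0.52 between replicates. In the authors' deposited table the hypoxia median of replicate 2 was -0.04, and glycolysis there was at -0.54.

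**Figure D3:**
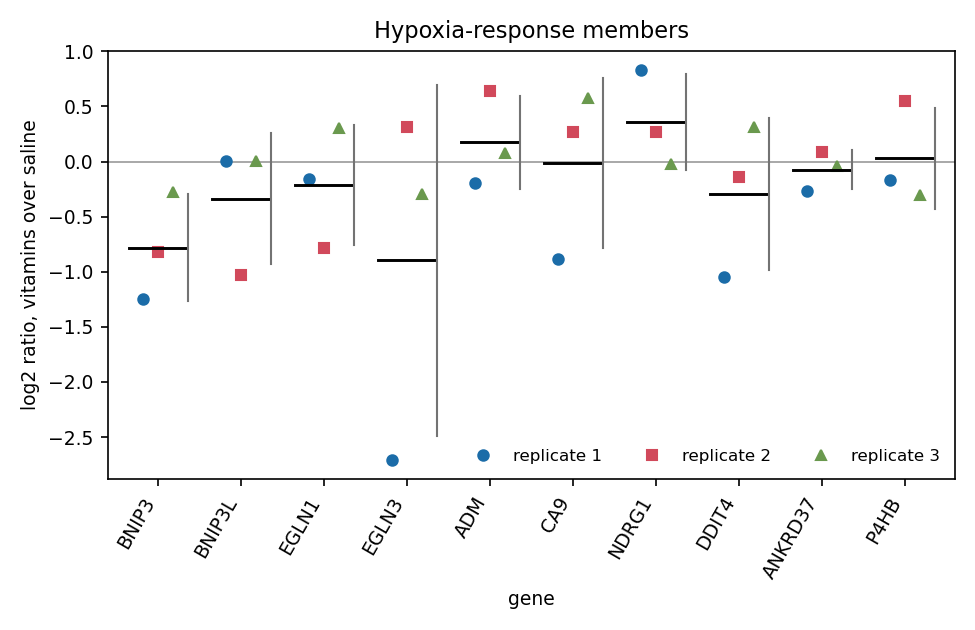
Log2 ratio of vitamins over saline (y axis) of the 10 hypoxia-response genes (x axis). Symbols are the 3 replicates, black bars the mean and grey bars ± 1 SD; BNIP3 is below 0 in each replicate (0.01 in replicate 3 with median centring), and EGLN3 reaches -2.71 in replicate 1 alone.

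BNIP3 and BNIP3L mark mitochondria for removal. BNIP3 had -1.25, -0.82 and -0.28, a mean of -0.78 ± 0.49 (SD, n = 3), a 1.72-fold lower level with vitamins. On the arrays 1 to 6 it was at -1.57, -0.93, -1.13, -0.51, -0.54 and -0.02, all below 0, and averaged -1.08 over the arrays with Cy5 on the vitamin RNA and -0.49 over the dye-swapped ones. Its spot read 10283 to 18818 units in the vitamin channels and 17118 to 37746 in the saline channels, and these ranges overlapped. The unadjusted p of limma was 0.0274, with a 95% interval of -1.43 to -0.14, and the adjusted p = 0.9998. With median centring replicate 3 of BNIP3 was at 0.01, and its mean was -0.90.

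BNIP3L had 0.01, -1.03 and 0.00, a mean of -0.34 ± 0.59 (SD, n = 3), which was 0.00 without replicate 2. Both arrays of replicate 2 were at -1.02 and -1.03, where its dimmer probe gave -0.57. Its spot was above 50000 units in 6 of 12 readings. Of the 2 genes, BNIP3 was thus lowest in replicate 1 and BNIP3L in replicate 2.

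The prolyl hydroxylases mark hypoxia-inducible factor for degradation, and the genes of 2 of them, EGLN1 and EGLN3, are targets of it. EGLN1, the main oxygen sensor, had -0.15, -0.78 and 0.30, and its other probe had the same signs (-0.24, -0.92 and 0.27). EGLN3 had -2.71, 0.31 and -0.29, a mean of -0.90 ± 1.60 (SD, n = 3), the widest range between replicates of any member (3.01). On the arrays of replicate 1 EGLN3 read 269 and 436 units with vitamins against 2077 and 2401 with saline, whereas on the other 4 arrays all its readings lay between 203 and 452. In replicate 1, 1.42% of all genes had a lower ratio. Without replicate 1 the mean of EGLN3 was 0.01.

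The remaining hypoxia genes had small means and mixed signs. ADM, a vasodilator peptide, had -0.20, 0.64 and 0.08, and its other probe was above 0 in each replicate (0.57, 0.11 and 0.38). NDRG1, a stress-induced gene, had 0.83, 0.27 and -0.02, a mean of 0.36 ± 0.43 (SD, n = 3), the highest of this group. DDIT4, an inhibitor of mTOR signalling, had -1.05, -0.14 and 0.31, a mean of -0.29 ± 0.69 (SD, n = 3). CA9, a carbonic anhydrase at the cell surface, had -0.88, 0.27 and 0.58. Its 2 other probes were not above the negative controls in any reading. P4HB, a subunit of collagen prolyl hydroxylase and a chaperone of disulfide bonds, had -0.16, 0.55 and -0.30. ANKRD37, a small ankyrin-repeat protein, had -0.27, 0.09 and -0.04, and averaged 0.23 with Cy5 on the vitamin RNA and -0.38 with Cy3 on it.

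SLC2A3 at -2.10, EGLN3 at -2.71, DDIT4 at -1.05, PGK1 at -1.28 and BNIP3 at -1.25 all had their lowest values in replicate 1. In that replicate 10.3% of all genes had a log2 ratio of -1 or lower, and 5 of 32 members did. Replicates 2 and 3 shared a slide that did not hold replicate 1, so slide and replicate 1 cannot be told apart. Within the shared slide, glycolysis had a median of -0.14 and the hypoxia response one of 0.05, against 0.17 and -0.23 on the slide of replicate 1. With the slide as a block they were -0.01 and -0.21.

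Arrays were joined into replicates by the correlation of their ratios, since the labels do not pair them, so the agreement within a replicate is in part a product of that choice and is given as a description. The signs of the 2 arrays matched for 25 of 32 members in replicates 1 and 2 (78.1%) and for 22 in replicate 3 (68.8%), where all genes had 74.1%, 70.2% and 61.4%. The median gap between both arrays of a replicate was 0.35, 0.34 and 0.30. The largest gaps were 1.24 for PDK1 in replicate 1, 0.92 for LDHA in replicate 2 and 0.83 for ENO2 in replicate 3. Correlations of the joined arrays over the 32 members were 0.87, 0.84 and 0.74, where all tested probes had 0.81, 0.75 and 0.44. Between replicates the members correlated at -0.01 (1 and 2), 0.12 (1 and 3) and 0.04 (2 and 3), where all genes had -0.21, 0.06 and 0.18.

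**Figure D4:**
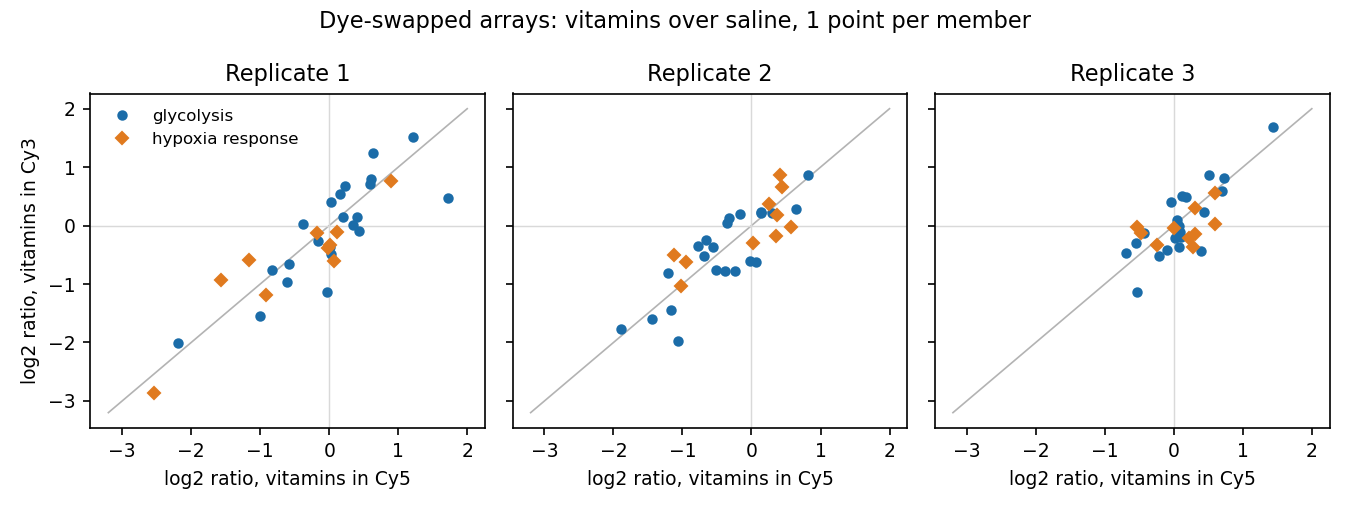
Log2 ratio of vitamins over saline on the array with vitamins in Cy5 (x axis) against that on the array with vitamins in Cy3 (y axis), 1 panel per replicate and 1 point per member, with the line of equality. The points scatter about the line in each replicate, whose arrays were joined by their correlation (r = 0.87, 0.84 and 0.74 over 32 members). Over all tested probes r was 0.81, 0.75 and 0.44.

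Of the 12 members with several tested probes, 7 had probe means of 1 sign and 5 of both signs. SLC16A1, ENO1, LDHA, BNIP3L, EGLN1, ADM and ANKRD37 made up the former, though the probes of ANKRD37 ran from -0.38 to -0.07. SLC2A1, HK1, HK2, GPI and PDK1 made up the latter. PGAM1, BNIP3, ALDOA, PGK1, SLC2A3 and EGLN3 each had a single tested probe, so no other probe bears on their values.

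Other genes around the pathway had no call either, with 0 of them past the adjusted threshold by limma. Of 12 other glycolysis and glucose entry genes measured (21 listed), 7 were below 0 and 5 above, with a median of -0.04. In that list BSG, the chaperone of the lactate carriers, had 1.22, 0.63 and 0.03, and HK3, a hexokinase of white blood cells, had 1.52, 0.16 and 0.13. The leukocyte markers had medians of -3.76, 1.86 and -0.11, so HK3 lay on the other side of 0 from them in replicates 1 and 3. The part of leukocytes in the HK3 value was not tested. PGAM2, the muscle mutase, had 1.49, -1.69 and -0.42, the lowest value of its list in replicate 2. Of 9 measured genes for pyruvate use in mitochondria (12 listed), 5 were below 0, with a median of -0.07. PDK2 was at 0.36 ± 0.05 and PDHB, a subunit of pyruvate dehydrogenase, at -0.41 ± 0.22 (SD, n = 3 each). The pyruvate carriers MPC1 and MPC2 were listed but not on the array, so pyruvate entry itself was not measured. PDK4 had -2.28, 2.55 and 0.76. Of 6 genes of the pentose phosphate pathway, which branches off after hexokinase, 4 were above 0 (median 0.30), with PGLS at 0.54 ± 0.17 and PGD at 0.47 ± 0.59 (SD, n = 3 each). PGAM2 and PDK4 were named after their values were seen, as were HIF1A, EPAS1, ERO1L, VEGFA, CXCR4 and HMOX1 among the genes that follow.

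The hypoxia-inducible factors themselves gave no common sign. HIF1A, the oxygen-regulated subunit, had 0.81, -0.74 and 0.05, and its relative EPAS1 had 0.24, 0.00 and -0.09 with detection in 8 of 12 readings. EGLN2, another prolyl hydroxylase, had 1.05, 0.69 and -0.20, and ARNT, the constant partner subunit, had -0.04, -0.13 and -0.30. Of 14 other hypoxia-induced genes measured (25 symbols listed), 11 were below 0, with a median of -0.28 and replicate medians of -0.68, -0.06 and -0.12. Among the listed symbols not on the array, ERO1A, HILPDA and AK4 are other names of the measured ERO1L, HIG2 and AK3L1. Of these 14, 5 were below 0 in all 3 replicates, against 12.5% of all genes. TFRC, the transferrin receptor, was at -0.69 ± 0.32, INSIG2, a brake on sterol synthesis, at -0.52 ± 0.25, and ERO1L, an oxidase of protein folding, at -1.18 ± 1.00 (SD, n = 3 each). TFRC also serves iron uptake of dividing cells, and the cell cycle genes were at medians of -1.59, -0.99 and -1.32 in the same replicates; their part in the TFRC value was not tested. VEGFA, the vessel growth factor, had -0.81, 0.58 and 0.02. CXCR4, a chemokine receptor of leukocytes, had -4.67, 1.39 and 0.01, and HMOX1, a haem oxygenase abundant in macrophages, had -4.42, 0.05 and 0.75. The leukocyte markers had -3.76, 1.86 and -0.11, and their part in these values was not tested.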

How the data were processed

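Per the file headers, the authors' scanner files hold the median pixel intensity of each spot and of its local background for Cy3 (green) and Cy5 (red). Per the labels' protocols, antisense RNA was amplified with the RiboAmp HSPlus kit before dye labelling. A table of log2 ratios was deposited as well, and how its background was corrected, its values normalized and its direction set is not stated in the sources at hand. Against the ratios computed here its columns had r = 0.861 to 0.962, slopes of 0.713 to 0.982 and medians from -0.0179 to 0.0149, which gives every column the direction of vitamins over saline and a centre near 0. It served as an alternative.

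With R 4.3.3 and limma 3.58.1, intensities were corrected by normexp (offset 50) and normalized by loess within arrays, control and ignored spots (2 to 71 per array) at weight 0. Ratios were turned to vitamins over saline. A probe was tested when it exceeded the mean plus 2 SD of 153 negative-control spots in at least 6 of 12 readings (26688 probes with a value in every replicate). The labels do not pair arrays: pairs are the matching of opposite dye orientations with the highest summed correlation (2.46, next 0.731), namely arrays 1 and 2, 3 and 4, 5 and 6. Each pair was averaged, and lmFit and eBayes gave two-sided tests of the 3 ratios against 0, with Benjamini-Hochberg adjustment over all probes. The brightest tested probe gives a gene's value. Errors are SDs. Precision is limited by how many arrays there are. The platform annotation names 21790 probes and leaves 22004 unnamed here; symbols are as it gives them. No sequences or coordinates are given. The test was tried on simulated ratios with 200 changed probes, of which it recovered 6% at a log2 change of 1 and 84% at 2. It also called 9 unchanged probes. In the measured ratios, CCNB1 with a mean of -2.36 and CYP19A1 with 2.21 were not called (adjusted p of limma 0.979 and 0.985). The simulated share of 84% therefore need not hold for these data. The lack of calls does not show that changes near a log2 ratio of 1 or 2 were absent.

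Every member is named; replicate values are given for members with 1 sign in all replicates, the 6 widest ranges and isoforms of a step, and from each other list the 2 genes of lowest unadjusted p, with others named after their values were seen. The members and lists were chosen with earlier results of these data known. Alternatives covered background, normalization, detection, slide, dye, model, probe choice, the deposited table and each replicate left out.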

Additional observations from a re-analysis of the deposited data

Results flagged for a closer look

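ANKRD37 had opposite signs in the dye orientations on every array: its log2 ratio of vitamins over saline averaged 0.23 where Cy5 marked the vitamin RNA (3 arrays) and -0.38 where Cy3 did (3 arrays), a difference of 0.61 that was not tested. Such opposite signs were present in 471 of 10946 genes (4.31%), and in 1 of 32 members. The probe was dim, detected in 5 of 6 readings of each group, and its mean ratio of -0.07 averages over both orientations.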

How the results depend on the processing

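No alternative called a probe by limma at an adjusted 0.05 (0 in each, with 652 to 3313 probes at an unadjusted p under 0.05), where the slide of replicate 1 alone and the mean over a gene's probes gave no test. The glycolysis median lay between -0.16 and 0.17 and the hypoxia median between -0.39 and 0.05. The latter moved by more than the spread between replicates in 1 setting: the medians with 1 replicate left out ran from -0.39 (without replicate 3) to 0.0541 (without replicate 1). The number of members below 0 in every replicate was 5. It was 2 with median centring, 8 on the slide of replicates 2 and 3 alone, 2 with vitamins in Cy5 alone, 8 in Cy3 alone, 8 in the deposited table, 3 over the mean of a gene's probes and, with 1 replicate left out, 8 to 10. The number above 0 was 1. It was 4 on the slide of replicates 2 and 3 alone, 3 in each dye orientation, 2 over the mean of a gene's probes and 4 to 8 with 1 replicate left out; fewer ratios have to share a sign there by construction. With median centring the 2 members below 0 in every replicate were SLC16A1 and ENO1, and the one above was NDRG1. In the deposited table the one above was ENO2, so PFKM was above 0 in every replicate in neither. PGAM1 and BNIP3, each with a mean below 0 in all settings, had values of 0.02 and 0.01 in replicate 3 with median centring. Median centring changed the sign of 5 of 32 member means, the deposited table of 6, a single slide of 8 or 9; the cause was not tested. With all 6 arrays, a dye term and the inferred pairs as a random replicate block, 0 probes passed, 1700 had an unadjusted p under 0.05, and the medians were -0.05 and -0.14. Precision is limited by 3 replicate ratios and by dim probes such as those of ENO2, CA9 and ANKRD37.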
